A study of Mus musculus with 3 samples.

Results

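The sirtuins are the 7 genes Sirt1 to Sirt7, taken by symbol, and all 7 had rows in the deposited table, among 18121 protein-coding genes with a coding transcript row. The value of a gene is the TPM of its longest protein-coding transcript, where TPM is a share of reads scaled by transcript length, with the same sum in every library. For the sirtuins the row with the highest mean is given too, and for other genes where it is over 1.5 times the value printed, and rows were not summed because transcripts of a gene share reads. The RNA came from cultured cortical neurons of wild-type Swiss-Webster mouse embryos at day 16 of gestation, with no treatment in their labels, although the culture protocol of the study describes brief etoposide, a TOP2 poison, before collection. A total of 3 libraries of poly-A RNA made up 1 group, so the comparisons are between genes within a library. Whether these were separate cultures is not stated, so every SD (n = 3) and p-value describes variation among the 3 libraries that could be purely technical.

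Sirtuins are relatives of the yeast silencing protein Sir2 and remove acetyl and other acyl groups from lysines. They consume NAD+ with every group removed, unlike the zinc-dependent histone deacetylases, which ties their activity to the metabolic state of the cell. SIRT1, SIRT6 and SIRT7 act mainly in the nucleus, SIRT2 mainly in the cytoplasm, and SIRT3, SIRT4 and SIRT5 in mitochondria. In brain, SIRT1 is studied for synaptic plasticity and SIRT2 for myelin and microtubules.

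Reads could be recovered from the values, because in each library 99.8% of the rows with matching transcript ends gave a whole number, within 0.01, once TPM and exonic length were multiplied and divided by 1 constant. The longest coding rows held 25515831, 22089853 and 22469607 reads in libraries 1, 2 and 3. Neuronal markers were high, with all 6 at 10 TPM or more and a sum of 1715 to 1932 TPM. The 6 astrocyte markers were also all at 10 TPM or more, with a sum of 388 to 464 TPM. Of the 11 oligodendrocyte lineage markers 8 were detected, at a mean of at least 1 TPM, and their sum ran from 56.2 to 90.5 TPM. The 5 microglial markers summed to at most 1.75 TPM with Tmem119 at 0, and the 3 endothelial markers to at most 0.315 TPM with Cldn5 at 0. The 3 markers of dividing cells were all detected, with a sum of 12.1 to 15.7 TPM. The label of cortical neurons was therefore met by its markers, with astrocytes and oligodendrocyte precursors also represented.

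The family spanned an 11.9-fold range of mean TPM on the longest coding rows. Sirt2 stood highest at 29.3 ± 3.36 TPM, followed by Sirt3 at 18.3 ± 3.30, Sirt7 at 9.21 ± 1.28, Sirt6 at 4.26 ± 0.416, Sirt5 at 3.24 ± 0.336, Sirt1 at 3.13 ± 0.379 and Sirt4 at 2.47 ± 0.364 TPM. All 7 were detected at a mean of at least 1 TPM, where 61.5% of protein-coding genes were. The median sirtuin stood at 4.26 TPM and the median protein-coding gene at 2.84 TPM, and 6 of the 7 lay at or above that median. On the highest rows the range was 10.6-fold, with Sirt2 again at the top and Sirt5 in place of Sirt4 at the bottom. Sirt5 has 1 row, so its value could not rise there, while Sirt4 has 6 rows.

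**Figure D1:**
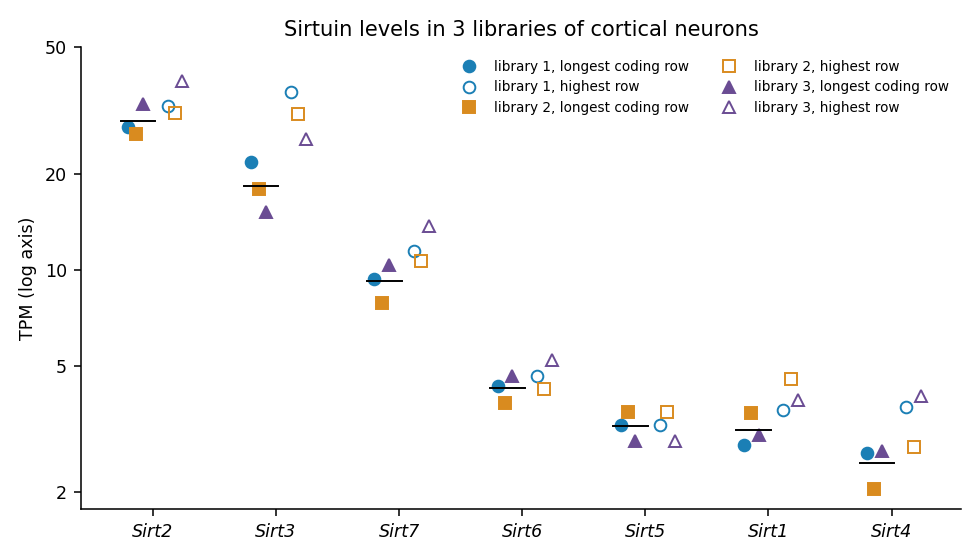
TPM of each sirtuin on a log axis in libraries 1, 2 and 3; filled symbols are the longest coding row with its mean as a bar, and open symbols are the row with the highest mean. Sirt2 and Sirt3 stand above 15 TPM in each library, Sirt7 between 7.85 and 10.4, and the other 4 genes between 2 and 5 TPM on the longest coding row.

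Neighbours in this order were compared within each library on the log2(TPM + 1) scale, and a difference was taken to exceed the spread where all 3 libraries had the same sign and the mean exceeded 2 SD. Sirt3 exceeded Sirt7 by 0.92 ± 0.35 and Sirt7 exceeded Sirt6 by 0.95 ± 0.07, both beyond the spread. Sirt2 was above Sirt3 in 3 of 3 libraries, by 0.66 ± 0.37, but this did not exceed the spread. Among the lower 4 genes, no neighbours were separated from each other. Sirt6 minus Sirt5 was 0.31 ± 0.23, Sirt5 minus Sirt1 was 0.04 ± 0.10 with 2 of 3 libraries positive, and Sirt1 minus Sirt4 was 0.25 ± 0.28. Of all 21 pairs 15 exceeded the spread, among them Sirt6 over Sirt4 by 0.60 ± 0.06. With 3 libraries an exact two-sided permutation test over signs has 0.25 as its smallest p, and it gave p = 0.25 for the 20 pairs with 1 sign in all libraries (0.2625 after Benjamini-Hochberg adjustment over 21 pairs) and p = 0.75 for Sirt5 against Sirt1.

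Among the nuclear members, Sirt1 encodes the deacetylase of p53, FOXO factors and PGC-1alpha. It lies on the minus strand of mm10 chromosome 10, and its longest coding row (Sirt1-203, chr10:63319005-63381704, 14 exons, 4430 exonic bases) stood at 2.82, 3.56 and 3.02 TPM in libraries 1, 2 and 3. Library 2 was the highest, in this row and in 6 of the 7 rows of the gene, and the mean lay at percentile 51.5 of protein-coding genes. This row starts far upstream of the others and adds 525 bases to Sirt1-201, which has 9 exons and the same coding length of 2211 bases. Those bases added 0, 2 and 0 reads to the 641, 679 and 611 reads of Sirt1-201, where a count of 0 allows up to 3 reads. By contrast, Sirt1-201 itself held 164, 174 and 156 reads per kb. On Sirt1-201 the gene stood at 3.20, 4.02 and 3.43 TPM, a mean of 3.55 ± 0.424 that lay above that of Sirt5. The highest row, Sirt1-205, a nonsense-mediated decay model, stood at 4.02 ± 0.467 TPM. It held 643, 678 and 614 reads, nearly those of Sirt1-201, on 3458 exonic bases against 3905. The share of transcripts of this form cannot be taken from row totals. The coding exon of 552 bases that Sirt1-207 lacks added 120, 135 and 156 reads to those of Sirt1-207, or 217, 245 and 283 per kb.

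The promoter of Sirt1 at the start of Sirt1-201 is shown because the bases of the upstream start held at most 2 reads. The window of 300 bases around the RefSeq start (GRCm38.p6, 250 bases before to 50 after) held 47 CpG dinucleotides, where the median of 32851 windows is 7, at percentile 98.8. Its part outside annotated exons, chr10:63339051-63339285, minus strand, is printed from 5′ to 3′ with E-boxes (CACGTG, its own reverse complement) in capitals.
Sirt1: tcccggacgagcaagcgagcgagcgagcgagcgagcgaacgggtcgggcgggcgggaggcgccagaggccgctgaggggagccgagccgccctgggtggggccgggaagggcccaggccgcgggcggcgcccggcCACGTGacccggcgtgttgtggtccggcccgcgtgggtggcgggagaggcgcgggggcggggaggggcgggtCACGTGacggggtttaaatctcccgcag
An E-box is the letter pattern bound by factors such as MYC, USF and CLOCK with BMAL1. The window held 2 matches, and 7.15% of all windows held at least 1 and 0.594% at least 2. A match describes the letters only.

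Sirt6, which deacetylates histone H3 and takes part in DNA repair and telomere chromatin, stood at 4.31, 3.82 and 4.64 TPM (Sirt6-201, chr10:81621787-81627797, minus strand, 8 exons). Library 3 was the highest and library 2 the lowest. The CV was the smallest of the family at 9.76%, which is 1.88 times the counting error of its 312 to 418 reads. Its rows ranged from 2.19 TPM for the short coding row Sirt6-204 to 4.69 ± 0.493 TPM for Sirt6-202, which has another first exon.

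Sirt7, which acts in the nucleolus on ribosomal RNA synthesis, stood at 9.39, 7.85 and 10.4 TPM (Sirt7-201, chr11:120618372-120625014, minus strand, 10 exons). Library 2 was the lowest in all 11 rows and library 3 the highest in 10 of them. The rows of Sirt7 differed most within the family, by 8.41-fold between 1.42 and 11.9 TPM. Rows over the 3′ part were the higher. Sirt7-207, which covers the last exons, held 724, 507 and 692 reads on 1218 bases, or 11.6, 9.63 and 12.4 TPM. Sirt7-208, which covers the first exons, held 140, 99 and 177 reads on 544 bases, or 5.02, 4.21 and 7.12 TPM. The 3′ row exceeded the 5′ row in 3 of 3 libraries. Among the retained-intron rows, Sirt7-204 and Sirt7-209 stood at 1.95 ± 0.534 and 1.42 ± 0.421 TPM. The longer ones were higher, with Sirt7-203 at 5.94, Sirt7-205 at 8.38, Sirt7-206 at 8.98 and Sirt7-210 at 9.06 TPM. The mean of Sirt7-201 was 9.21 TPM. Bases that Sirt7-203 holds beyond Sirt7-201 added 163, 149 and 182 reads over 1547 bases, and 124 bases of that row lie within exons of Mafg on the same strand, so its reads cannot be assigned to Sirt7 alone.

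**Figure D2:**
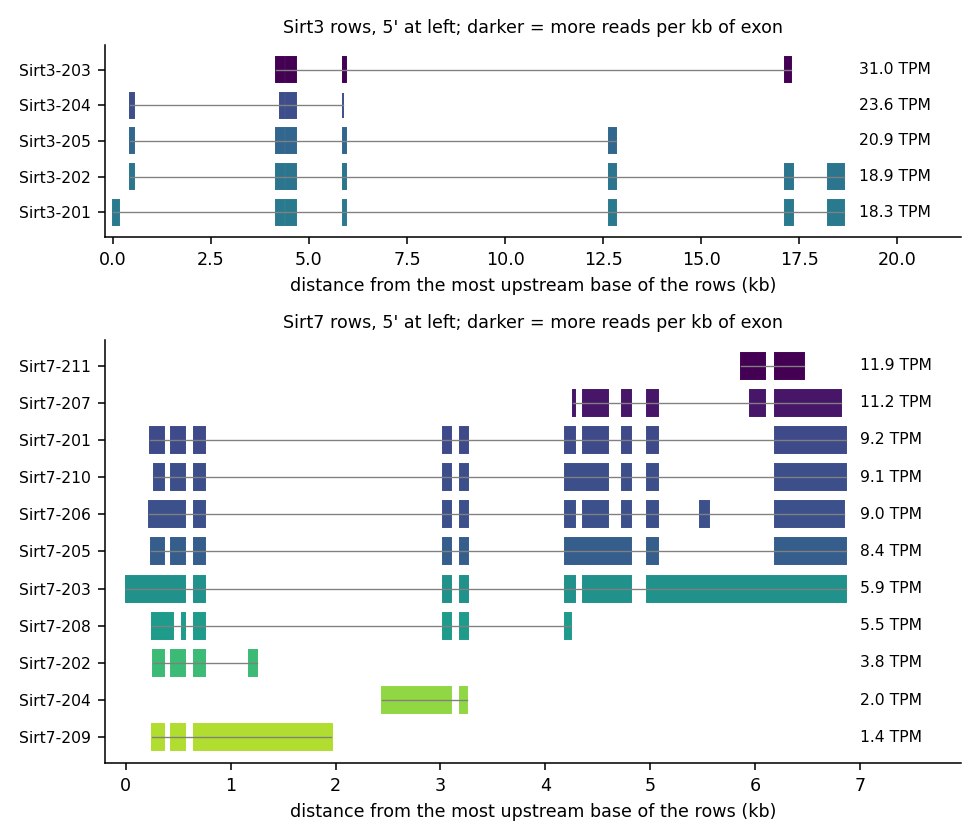
Exons of the deposited rows of Sirt3 (top) and Sirt7 (bottom) against distance in kb from the most upstream base, coloured by the mean reads per kb over all exons of the row (darker is higher, not per exon), with the mean TPM at the right. Among Sirt7 rows the 3′ row Sirt7-211 stands at 11.9 TPM and the 5′ row Sirt7-202 at 3.8 TPM, and among Sirt3 rows Sirt3-203 stands highest at 31.0 TPM.

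The cytoplasmic member Sirt2 removes acetyl groups from alpha-tubulin and in adult brain is known as an abundant oligodendrocyte protein. Its longest coding row (Sirt2-208, chr7:28767254-28788660, plus strand, 15 exons) stood at 28.2, 26.7 and 33.1 TPM, at percentile 90.8 of protein-coding genes. Library 3 was the highest and library 2 the lowest in all 9 rows of the gene. The summed oligodendrocyte lineage markers took the same order, at 73.7, 56.2 and 90.5 TPM in libraries 1, 2 and 3, as did 6 of the 11 markers singly. Pdgfra of precursor cells stood at 11.5, 4.94 and 18.4 TPM, while the myelin genes Mog and Mobp stood at 0.0286 and 0.00667 TPM on average (0.0644 for Mobp on its highest row). The part of these cells in the Sirt2 values was not tested, and in such bulk RNA more cells of a type and more RNA per cell cannot be told apart. Sirt7, Sirt6 and Sirt4 were likewise lowest in library 2 and highest in library 3.

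Sirt2-208 begins with an alternative first exon. Its 378 own bases brought a net 53, 25 and 46 reads over Sirt2-201, which has 104 bases of its own in the upstream first exon and held 1629, 1314 and 1714 reads per kb. The start of Sirt2-208 lies within the span of Nfkbib on the other strand, at 7.50 ± 0.641 TPM. The strand setting is not given, so these net reads cannot be assigned to Sirt2 alone. On Sirt2-201 the gene stood at 31.8, 30.4 and 37.5 TPM, a mean of 33.2 ± 3.78. The row Sirt2-209 had the highest mean, 34.3 ± 4.24 TPM, and lacks coding exons 2, 3 and 4 of Sirt2-201. Its counterpart Sirt2-202 keeps the last 2 of these exons, and the bases that only Sirt2-202 holds, 180 in all, added 217, 199 and 198 reads to those of Sirt2-209, a density of 1206, 1106 and 1100 per kb. The share of transcripts that skip these exons cannot be taken from row totals. Exons 3 and 4, which separate Sirt2-202 from Sirt2-209, are printed from the GENCODE M21 transcript, plus strand, 5′ to 3′.
Sirt2 exon 3, chr7:28771811-28771859: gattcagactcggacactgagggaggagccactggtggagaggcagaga
Sirt2 exon 4, chr7:28772095-28772208: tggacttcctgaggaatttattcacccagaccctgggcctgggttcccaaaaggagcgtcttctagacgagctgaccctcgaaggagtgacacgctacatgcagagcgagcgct
In human SIRT2 the matching part of the protein holds a nuclear export signal.

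Among the mitochondrial members, Sirt3 encodes the main deacetylase of the matrix. It was by far the highest of the 3, at 21.8, 18.0 and 15.2 TPM (Sirt3-201, chr7:140863670-140882309, minus strand, 7 exons). Library 1 was the highest and library 3 the lowest in all 5 rows, whereas Sirt2 was highest in library 3. The summed astrocyte markers ran the other way, at 388, 408 and 464 TPM, but only 2 of the 6 markers, Aqp4 and Slc1a3, did so singly, and their part in the result was not tested. The CV of 18.0% was the largest of the family and 6.29 times the counting error of 1633, 1137 and 1017 reads. Of 3818 detected genes within 2-fold of its level, 96.4% had a CV as low or lower, and their median CV was 7.22%. Between libraries 1 and 3 Sirt3 differed by 0.49 on the log2(TPM + 1) scale, at percentile 99.1 of detected protein-coding genes. Psmd13, which encodes a proteasome subunit and starts head to head with Sirt3, stood at 45.2, 38.7 and 39.0 TPM in the same libraries.

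**Figure D3:**
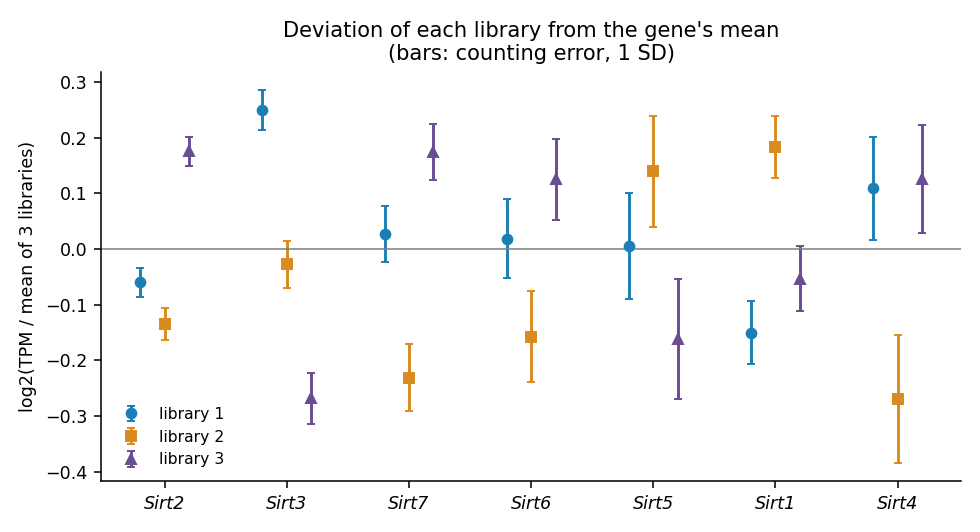
Deviation of each library from the gene's mean, as log2 of TPM over the mean of 3 libraries on the longest coding row, with bars of 1 SD of counting error. For Sirt3 library 1 lies highest and library 3 lowest, for Sirt2 and Sirt7 library 3 lies highest and library 2 lowest, and for Sirt5 and Sirt1 library 2 lies highest.

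The 2 full-length rows of Sirt3 differ in the first exon and have the same coding length of 771 bases. The first exon of Sirt3-201 has 152 bases, all within exons of Psmd13 on the other strand, which held 2315, 1671 and 1783 reads per kb. Sirt3-201 had a net 0, 2 and 3 reads more than Sirt3-202, whose first exon has 107 bases of its own, so the row totals do not separate the alternative starts. The row with the highest mean was Sirt3-203, a short coding row of 690 bases inside the gene, at 36.3, 30.8 and 25.8 TPM. On these highest rows Sirt3 was above Sirt2 in library 1 and below it in library 2 and library 3, so the order of the leading pair depends on the row.

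Sirt4, a mitochondrial lipoamidase that also restrains glutamate dehydrogenase, was the lowest member at 2.66, 2.05 and 2.70 TPM (Sirt4-201, chr5:115478010-115484725, minus strand, 5 exons). Libraries 1 and 3 were close and library 2 stood below them in all 6 rows, with 245, 159 and 221 reads behind the longest coding row. Sirt4-201 and Sirt4-202, which differ in the first exon, were within 3 reads of each other in every library. The highest row was a retained-intron model at 3.50 ± 0.646 TPM, and its share of the transcripts cannot be taken from row totals.

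Sirt5, which removes succinyl, malonyl and glutaryl groups, had a single row (Sirt5-201, chr13:43370710-43395202, plus strand, 8 exons). It stood at 3.25, 3.57 and 2.90 TPM from 228, 211 and 181 reads. Library 2 was the highest and library 3 the lowest. The summed neuronal markers took that order at 1898, 1932 and 1715 TPM, but only 2 of the 6 markers, Map2 and Snap25, did so singly, and their part in the result was not tested. Its spread was the closest to the counting error in the family, with a CV of 10.4% that was 1.49 times that error.

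**Figure D4:**
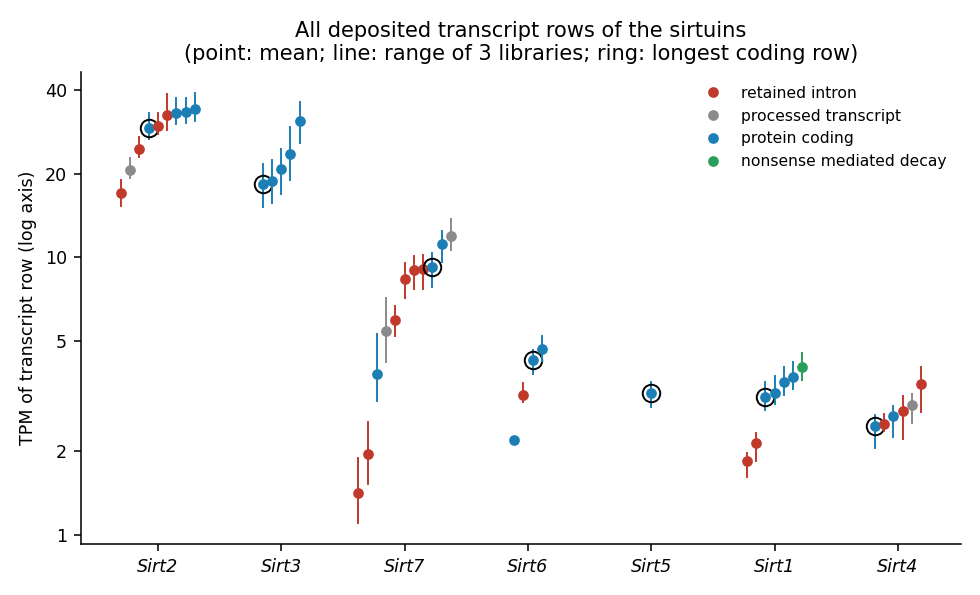
TPM of all 43 deposited sirtuin rows on a log axis, coloured by transcript type, with points at the mean, lines over the range of 3 libraries and a ring on the longest coding row. The rows of Sirt7 spread 8.41-fold and those of Sirt4 1.42-fold, and Sirt5 has 1 row.

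Other promoter windows shared short patterns, searched on both strands after the windows had been seen. The pattern ACTACA followed by any 2 bases and TCCC, the core of sites bound by the zinc finger factor ZNF143, was found in 1.81% of all windows and in those of Sirt2 and Sirt4, with 2 matches in each, where 0.244% of all windows held at least 2. The Sirt2 window holds the start of Sirt2-201 and the Sirt4 window that of Sirt4-202. Neither holds the start of the longest coding row, and no link to levels was tested. The pattern GCGCATGCG is the core of sites bound by NRF1, a regulator of nuclear genes for mitochondria. It was found in 1.75% of windows, in that of Sirt7 and in 1 of the 2 windows of Sirt6. In Sirt6 its matches on the plus and minus strand overlap and form 1 site. This site lies inside the span of Sirt6-201, whose 5′ end is at 81627797. The matches are printed in capitals on the strand of the gene, 5′ to 3′.
Sirt2, chr7:28766672-28766701: aggctttttGGGATTTGTAGTttgataaca
Sirt2, chr7:28766741-28766770: ttgcctgccGGGAGTTGTAGTtctctatcc
Sirt4, chr5:115484413-115484442: taggattctGGGACTTGTAGTtttcttcca
Sirt4, chr5:115484374-115484403: gcttcgcggACTACATTTCCCaagatgcac
Sirt6, chr10:81627691-81627719: catcaggaggGCGCATGCGctctggaaag
Sirt7, chr11:120625020-120625048: ggccgggcccGCGCATGCGtctctgtagc
Of the ZNF143-like matches, 3 are printed as the reverse complement of the pattern and 1 as the pattern itself. All 9 sirtuin windows held more CpG than the median window, from 15 to 47. The Sirt5 window, chr13:43365285-43365584, does not hold the start of its only row, at 43370710.

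Sirtuins need NAD+, and the genes that make it were unevenly represented. Of 14 NAD synthesis and salvage genes 5 were detected, where 61.5% of all protein-coding genes were. The list median was 0.36 on the log2(mean TPM + 1) scale, against 1.94 for all protein-coding genes. The salvage route was present, with Nampt, its rate-limiting enzyme, at 11.5 ± 0.880 TPM. Nmnat2, the axonal enzyme of the final step, stood at 30.7 ± 3.70 TPM, next to Nmnat1 of the nucleus at 1.88 ± 0.0602 and Nmnat3 of mitochondria at 0.0641 ± 0.0305 TPM. Slc25a51, the mitochondrial NAD+ carrier, stood at 16.1 ± 0.871 TPM. The listed genes of the route from tryptophan were not detected, and the list does not hold every gene of that route. Tdo2, its first enzyme, stood at 0.186 ± 0.0270 TPM and at 0.545 TPM on its highest row, Kmo and Qprt at or below 0.0133 TPM on average, and Kynu and Haao were listed at 0.

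Of 8 other NAD+ consumers 5 were detected, a share near the 61.5% of all protein-coding genes, with a median of 3.17. Tnks2 and Parp1, which use NAD+ to build poly-ADP-ribose, stood at 31.3 ± 2.54 and 20.96 ± 1.51 TPM, and the axon degeneration enzyme gene Sarm1 at 6.17 ± 0.642 TPM. Cd38, a main NAD+ hydrolase of immune cells and glia, stood at 0.166 ± 0.0993 TPM.

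Of 14 regulators and targets of the nuclear sirtuins 13 were detected, where 61.5% of protein-coding genes were, with a median of 2.57. Ccar2, whose product inhibits SIRT1, stood at 16.8 ± 0.740 TPM and Rps19bp1, whose product activates it, at 15.1 ± 1.41 TPM. Both were above Sirt1 in each library. Ubtf, a factor of ribosomal RNA transcription, stood at 17.5 ± 0.638 TPM (27.8 on its highest row), and Ppargc1a, the gene of PGC-1alpha, at 8.32 ± 1.91 TPM. Hic1, a repressor of Sirt1, was not detected at 0.0353 ± 0.0153 TPM.

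Of 11 targets of the mitochondrial sirtuins 9 were detected, where 61.5% of protein-coding genes were, with a median of 3.89. Glud1, glutamate dehydrogenase and target of SIRT4, stood at 61.8 ± 2.01 TPM and at 131.8 TPM on its highest row. The SIRT3 targets Sod2, manganese superoxide dismutase, and Opa1, a fusion factor, stood at 36.8 ± 6.27 and 26.8 ± 2.87 TPM. Dlat, the pyruvate dehydrogenase subunit that SIRT4 acts on, stood at 22.6 ± 3.59 TPM (34.2 on its highest row). Cps1, a urea cycle enzyme of liver and target of SIRT5, was not detected at 0.387 ± 0.141 TPM. Around tubulin, Atat1, which adds the acetyl group, stood at 23.8 ± 3.29 TPM (37.9 on its highest row) and Hdac6, which removes it as SIRT2 does, at 10.5 ± 0.253 TPM. Sirt2 was above Hdac6 in each library.

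The 10 zinc-dependent deacetylases, other than Hdac6, were all detected, where 61.5% of protein-coding genes were. They had a median of 3.19, against 2.39 for the sirtuins. Their levels overlapped those of the sirtuins, from 1.34 TPM to 35.9 ± 3.19 TPM for Hdac3, with Hdac11 at 34.4 ± 0.790 TPM. The row mattered most for Hdac2, which stood at 13.95 ± 0.997 TPM on its longest coding row and at 75.9 TPM, the top of the list, on its highest row. Over the 3 libraries, the listed gene closest in level was Hdac8 for Sirt1, Tnks2 for Sirt2, Slc25a51 for Sirt3, Hdac10 for Sirt4, Rela for Sirt5, Ep300 for Sirt6 and Parp2 for Sirt7. The mean absolute difference was 0.10 to 0.17 on the log2(TPM + 1) scale, out of 59 genes searched.

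**Figure D5:**
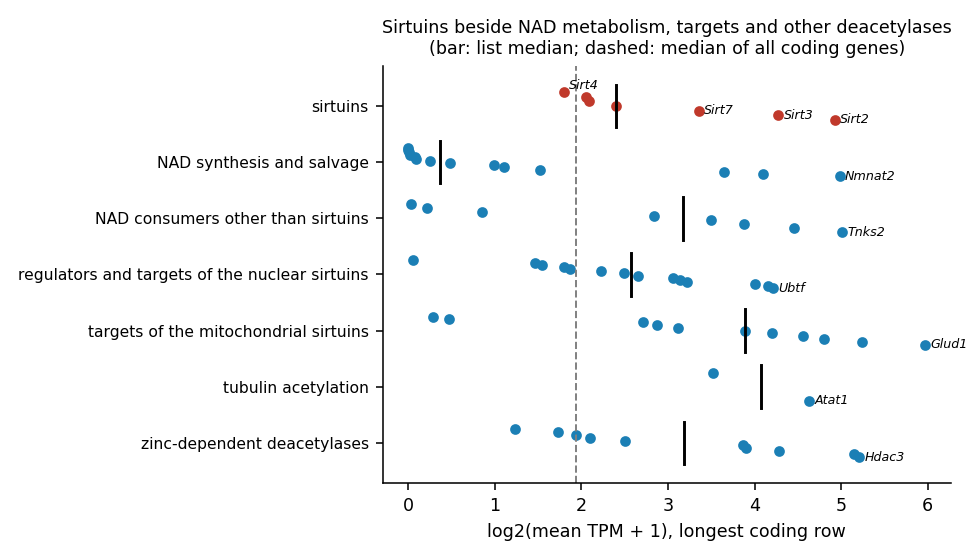
log2(mean TPM + 1) of the sirtuins (red) and of the listed genes around them (blue), 1 point per gene, with the list median as a bar and the median of all protein-coding genes, 1.94, as a dashed line. The sirtuin median is 2.39, the NAD synthesis median 0.36 and the median of the mitochondrial targets 3.89.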

How the data were processed

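The authors deposited TPM for 84660 GENCODE release M4 transcripts in 3 libraries made with a strand-specific poly-A kit, per the labels' protocols. Trimmomatic, TopHat, Bowtie, HTSeq and mm10 are named in the submitters' processing notes. Not given in the sources used here: versions, the strand setting and how reads shared between transcripts were treated. All 43 sirtuin rows gave whole reads, and Sirt1-201 and Sirt1-202 both held 641, 679 and 611 in libraries 1, 2 and 3. Reads that these rows share thus appear to be counted in each of them. Transcripts were matched without version to GENCODE M21, and 83017 matched, 47 of them elsewhere. Reads were recovered as TPM times exonic length over 1 constant per library. On simulated data 100% of reads of 74441 rows were recovered in each library. Pairs of libraries differed by 12.9 to 18.9 chi-square per degree of freedom, far above sampling noise. A TPM on 2000 bases stood for 86.5 to 103 reads.

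Members and lists were chosen with earlier results of these data known. Named genes were the sirtuins and members of lists written with the design, up to 5 of the highest and those near 0. Alternatives were the highest row, leaving out each library, rescaling, the median, a pseudocount of 0.1 (otherwise 1), rows without the alternative first exons (chosen after seeing the data) and other detection limits. Promoters are from RefSeq (GRCm38.p6), where all 7 symbols matched. Python 3.11.15, numpy 2.4.6 and pandas 2.3.3 were used.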

Additional observations from a re-analysis of the deposited data

How the results depend on the processing

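Of 185 values under alternatives 149 counted as the same, 33 moved and 3 reversed. A level or list median was the same within its SD, a count within 1.5-fold, and a difference between neighbours if it kept its sign. Differences among the 149 could therefore change in size. On the highest rows Sirt2 minus Sirt3 was 0.15 ± 0.38, against 0.66 ± 0.37 on the longest coding rows. Sirt7 minus Sirt6 was 1.18 ± 0.06 there, against 0.95 ± 0.07. The reversed difference was Sirt5 minus Sirt1, at -0.24 on the highest rows, -0.10 on rows Sirt1-201 and Sirt2-201 (an alternative chosen after seeing the data) and from -0.0197 to 0.0794 when leaving out each library, the lowest without library 1. Sirt5 has 1 row, so its value could not rise on the highest rows, while Sirt1 has 7 rows. On the highest rows Sirt2 stood at 34.3, Sirt3 at 31.0, Sirt7 at 11.9, Sirt6 at 4.69, Sirt1 at 4.02 and Sirt4 at 3.50 TPM. There the medians were 0.55 for NAD synthesis, 3.36 for other NAD+ consumers, 2.87 for nuclear targets, 4.20 for mitochondrial targets, 4.66 for tubulin acetylation and 3.40 for zinc-dependent deacetylases. Rescaling to nuclear protein-coding genes multiplied all values by 4.77 on average, since the deposited sum also covers the other rows. Sirt2, Sirt3, Sirt7, Sirt6, Sirt5, Sirt1 and Sirt4 then stood at 140.2, 87.4, 44.0, 20.3, 15.4, 14.9 and 11.8 TPM, and the list medians, in the order above, at 1.23, 5.29, 4.62, 6.07, 6.26 and 5.29. With rows Sirt1-201 and Sirt2-201 these genes stood at 3.55 and 33.2 TPM. Detection at 5 TPM left 3 of 7 sirtuins, 3 of 14 NAD synthesis genes, 7 of 14 nuclear targets and 5 of 10 zinc-dependent deacetylases. With any value above 0 there were 12 of 14 NAD synthesis genes and 8 of 8 other consumers. The shares of all protein-coding genes at these 2 limits were not computed. For scale, Trp53 at 5.28 TPM lay at percentile 60.6 of protein-coding genes, and Kmo at 0.0021 TPM at percentile 5.98. The count of pairs beyond the spread ran from 15 to 17. With 3 libraries the exact permutation test cannot go below p = 0.25, so the alternatives show nothing about calls. No paired analysis was possible because there is 1 group.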
